A study of Homo sapiens with 5 samples.

Results

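Expression of 10 genes of the BCL2 family and the BNIP3 pair was followed in NCI-H209, an established human small-cell lung cancer line. The cells were compared with and without co-culture with human brain microvascular endothelial cells (HBMECs). The 10 genes were taken by name: BCL2, BCL2L1, MCL1, BAX, BAK1, BCL2L11, BBC3, PMAIP1, BNIP3 and BNIP3L. They are 10 of the 64837 gene entries counted, and all 10 were among the 20360 genes that passed the filter on low counts and were tested. The control group held 3 RNA-Seq libraries of untreated NCI-H209 cells, and the co-cultured group held 2 libraries of NCI-H209 cells conditioned for 24 h by HBMECs that sat in a Transwell insert above them, so that the cell types shared medium across a porous membrane. All 5 libraries came from this 1 tumor line without any further genetic change or drug, and the labels do not say that replicates were separate cultures, so that p-values measure only the spread between these libraries. Nor do they say whether an insert without HBMECs stood above the control cells, so that an effect of the HBMECs and one of the insert cannot be told apart.

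The BCL2 family is the switch of the mitochondrial route to apoptosis. The survival proteins BCL2, BCL-XL (gene BCL2L1) and MCL1 hold the effectors BAX and BAK (gene BAK1) in check, and free BAX or BAK forms pores through which cytochrome c leaves the mitochondrion and starts the caspases. BH3-only proteins such as BIM (BCL2L11), PUMA (BBC3) and NOXA (PMAIP1) are made or released under stress and bind the survival proteins, NOXA mainly MCL1. BNIP3 and BNIP3L (also called NIX) sit in the outer membrane, are known targets of the hypoxia-inducible factors (HIF), and serve mainly as receptors that hand mitochondria to the autophagy machinery. Small-cell lung cancer is known for high BCL2 and for a reliance on BCL2, BCL-XL and MCL1.

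HIF binds a short DNA core that reads ACGTG or GCGTG, so the start-site windows of the members were searched for these letters on both strands. Windows of 300 bases, from 250 before to 50 after the start, were available for 8 of the 10 members from RefSeq (GRCh38.p14). None was available for MCL1 or BNIP3L, which were therefore not searched. Of all 35116 windows of this length, 48.4% held either motif, 21.4% ACGTG and 36.5% GCGTG. The windows of BNIP3 and BAX held 5 separate runs of the motifs each, a number reached by 0.945% of all windows, and that of PMAIP1 held 2, a number reached by 19.9%. BCL2L11 had 2 runs, BBC3 had 1, BCL2L1 had none in its first window and 1 in its second, and BCL2 and BAK1 had none. The stretches of 3 members are shown, from the start of the window up to the base before the outermost annotated start of the gene: BNIP3, whose expression rose, PMAIP1, which rose most of the 10, and BAX, which held as many runs as BNIP3 and was not called. Capitals mark the motif, which reads CACGT or CACGC where it lies on the other strand, and overlapping matches form 1 run.
BNIP3, chr10:131982014-131982173, minus strand: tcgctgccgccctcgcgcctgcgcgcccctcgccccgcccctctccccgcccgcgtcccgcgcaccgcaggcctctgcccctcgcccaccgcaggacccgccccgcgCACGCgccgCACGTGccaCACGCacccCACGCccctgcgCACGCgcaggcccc
PMAIP1, chr18:59899746-59899947, plus strand: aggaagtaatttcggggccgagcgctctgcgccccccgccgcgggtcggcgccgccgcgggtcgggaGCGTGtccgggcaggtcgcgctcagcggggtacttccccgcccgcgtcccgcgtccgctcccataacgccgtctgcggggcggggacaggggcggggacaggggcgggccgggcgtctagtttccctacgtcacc
BAX, chr19:48954625-48954814, plus strand: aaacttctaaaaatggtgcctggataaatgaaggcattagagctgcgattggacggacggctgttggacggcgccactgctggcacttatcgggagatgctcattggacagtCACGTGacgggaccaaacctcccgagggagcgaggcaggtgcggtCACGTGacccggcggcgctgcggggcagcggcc
All 5 runs of the BNIP3 window lay in the 160 bases shown, against 2 of 5 for BAX in 190 bases and 1 of 2 for PMAIP1 in 202 bases. A match is a string of letters and was not tested for binding in these cells.

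The libraries held 15457071 to 19157348 counts on genes. Levels are given as CPM (counts relative to the library total, here scaled with TMM factors). The floor of detection was taken as 3 counts, which corresponded to 0.157 to 0.194 CPM before TMM scaling. The share of unmapped reads was 8.13% to 8.48% in control against 16.8% and 15.9% after co-culture, that of reads outside annotated exons on the expected strand 47.3% to 51.2% against 40.1% and 40.8%, and control replicate 1 stood apart on the second principal component, which held 18.3% of the variance. Of 14 neuroendocrine markers of the tumor, 13 were tested and their summed level was 2402 to 3053 CPM in control and 3137 and 3303 CPM in co-cultured cells, with CHGA at no more than 1 count, and single markers moved both ways, 4 higher and 3 lower. Of 16 endothelial markers, the summed level was 10.1 to 19.6 CPM in control and 13.6 CPM in each co-cultured library, 6 of them never passed 3 counts, and MMRN1 and ECSCR were at 0 throughout. PECAM1 and CDH5, which define endothelium, reached at most 18 and 11 counts in any library. Other endothelial markers were higher, with VWF, ERG and KDR at up to 159, 70 and 37 counts. ESAM alone of the 8 endothelial markers tested was called, from 3, 4 and 6 control counts to 21 and 14 counts after co-culture.

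Co-culture raised 6 of the 10 members and the remaining 4 did not pass the test (the quasi-likelihood test of edgeR, Benjamini-Hochberg adjusted p under 0.05 among all tested genes, which stands behind every adjusted p given below). PMAIP1, BNIP3 and BNIP3L rose by more than 1 on the log2 scale, while BAK1, MCL1 and BCL2 rose by 0.26 to 0.47. Over all 20360 genes 18.4% were called higher and 15.0% lower, 33.4% in either direction, a split of 3750 to 3059 genes that turned to 3076 against 3929 under upper-quartile normalization. No member was called lower by the main edgeR fit or by DESeq2, and 1, BCL2L11, was lower at an unadjusted p under 0.05 in the main fit. Some other edgeR settings, given below, called BCL2L11 lower. The median log2 fold change of the 10 members was 0.32 against -0.03 for all genes tested. The members were chosen with earlier results of these data known, so their counts and median are a description of the 10. At the study's criterion for differentially expressed genes (DEGs), read as a log2 fold change beyond 1 in either direction at an unadjusted p below 0.05, 3 of the 10 were upregulated, beside 5.44% of all genes tested, and none was downregulated, beside 5.01%. Without co-cultured replicate 1 or 2 the number called higher was 3, the same 3 that passed a log2 fold change of 1, and without control replicate 1 it was 7, with BAX added. In bulk RNA, more cells that express a gene and more RNA of it per cell cannot be told apart.

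**Figure D1:**
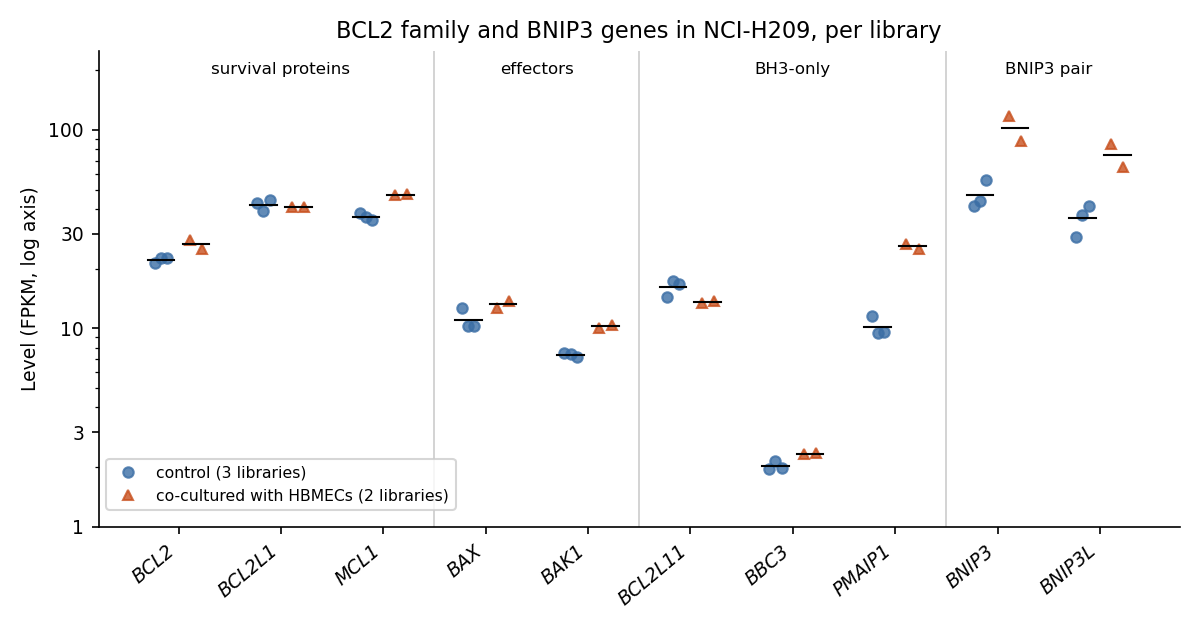
Levels of the 10 genes in each library, as scaled CPM per kilobase of exon (FPKM, log axis), grouped by role. Circles are the 3 control libraries, triangles the 2 co-cultured libraries and bars the group means. BNIP3, BNIP3L and PMAIP1 show co-cultured libraries far above their control libraries, and BCL2L1 and BAX overlap.

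Levels of different genes were compared as CPM per kilobase of exon (FPKM). In control cells BNIP3 was the highest of the 10 at 47.1 ± 7.92 FPKM (SD, n = 3), followed by BCL2L1 at 42.0 ± 2.63, MCL1 at 36.5 ± 1.35, BNIP3L at 35.7 ± 6.27 and BCL2 at 22.1 ± 0.731. BCL2L11 at 16.1 ± 1.56, BAX at 11.1 ± 1.44, PMAIP1 at 10.2 ± 1.14 and BAK1 at 7.37 ± 0.174 FPKM came next, and BBC3 was the lowest at 2.03 ± 0.0991. In this order the control libraries of BNIP3 and BCL2L1, of MCL1 and BNIP3L, and of BAX and PMAIP1 overlapped, and all other neighbours were separate. In co-cultured cells BNIP3 at 102 ± 20.4 FPKM (SD, n = 2) and BNIP3L at 74.9 ± 14.6 led, followed by MCL1 at 47.1 ± 0.172 and BCL2L1 at 40.9 ± 0.175. PMAIP1 moved from place 8 to place 6 at 25.8 ± 1.22 FPKM, where its libraries overlapped with those of BCL2 at 26.6 ± 1.98. BCL2L11 and BAX were the other neighbours that overlapped in co-cultured cells. Per kilobase of the longest transcript in place of all exons, BNIP3 stayed highest in control at 81.9 FPKM. The control levels of BCL2, BAX, BBC3 and BNIP3 were more than 1.5 times as high, at 34.9, 21.1, 3.50 and 81.9 FPKM. The control order then changed, with BAX above BCL2L11 (20.5 FPKM) and BNIP3L (42.6 FPKM) above MCL1 (40.6 FPKM), so that the order depended on the length used.

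Among the survival genes, MCL1 and BCL2 rose slightly and BCL2L1 showed no call. BCL2 (chr18:63123346-63320128), the namesake of the family, was at 250.7, 266.5 and 264.5 CPM in the control libraries and at 329.4 and 296.5 CPM in the co-cultured ones. Both co-cultured libraries lay above all control libraries, with co-cultured replicate 1 the higher. Control cells averaged 261 ± 8.60 CPM (SD, n = 3) and co-cultured cells 313 ± 23.3 CPM (SD, n = 2), for a log2 fold change of 0.26 (SE 0.08, 95% interval 0.08 to 0.45, adjusted p = 0.0342). MCL1 (chr1:150574551-150579738), a short-lived survival protein, was at 165.9, 158.6 and 154.2 CPM in control and at 205.2 and 206.3 CPM in co-cultured cells. Its 2 co-cultured libraries were nearly equal and above every control library, and the log2 fold change was 0.37 (SE 0.07, 95% interval 0.20 to 0.53, adjusted p = 0.00537). BCL2L1 (chr20:31664452-31723989), the gene of BCL-XL, was at 141, 130 and 147 CPM in control and at 136 and 135 CPM in co-cultured cells. The co-cultured libraries fell within the control range, and the log2 fold change was -0.04 (SE 0.08, adjusted p = 0.756), with a 95% interval from -0.22 to 0.15 and a sign that turned with unstranded counts. Leaving out 1 library, the call of BCL2 was kept only without control replicate 1, and its adjusted p was 0.0681, 0.0809, 0.289 and 0.0834 without control replicates 2 and 3 and co-cultured replicates 1 and 2. BCL2 also lost its call under upper-quartile normalization (adjusted p = 0.111). MCL1 lost its call without co-cultured replicate 1 (adjusted p = 0.0582) and without co-cultured replicate 2 (adjusted p = 0.0674).

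Of the effectors, BAK1 rose and BAX did not pass the test. BAK1 (chr6:33572547-33580293), which sits in the outer membrane even in healthy cells, was at 16.6, 16.5 and 15.9 CPM in control and at 22.2 and 23.1 CPM in co-cultured cells. The groups were far apart relative to their own spread, and the log2 fold change was 0.47 (SE 0.10, 95% interval 0.24 to 0.71, adjusted p = 0.00764). BAX (chr19:48954815-48961798), which moves from the cytosol to mitochondria when activated, was at 32.9, 26.4 and 26.5 CPM in control and at 32.9 and 35.4 CPM in co-cultured cells. Control replicate 1 was as high as co-cultured replicate 1, so that the groups overlapped, and the log2 fold change was 0.25 (SE 0.12, 95% interval -0.01 to 0.52, adjusted p = 0.13). Without control replicate 1 the log2 fold change of BAX was 0.37 and passed (adjusted p = 0.00175). BAK1 lost its call without co-cultured replicate 1 (adjusted p = 0.0599) and without co-cultured replicate 2 (adjusted p = 0.0804).

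The BH3-only genes differed from each other. PMAIP1 (chr18:59899948-59904306), the gene of NOXA, was at 25.7, 21.2 and 21.5 CPM in control and at 59.7 and 55.8 CPM in co-cultured cells. The lower co-cultured library was more than 2 times as high as the highest control library, and in raw counts the libraries held 484, 384 and 419 against 1092 and 845 reads. Control cells averaged 22.8 ± 2.54 CPM (SD, n = 3) and co-cultured cells 57.8 ± 2.73 CPM (SD, n = 2), 2.53-fold higher, with a log2 fold change of 1.34 (SE 0.11, 95% interval 1.10 to 1.58, adjusted p = 6.04e-05). This exceeded the log2 fold change of 96.8% of the genes tested. BCL2L11 (chr2:111119378-111168447), the gene of BIM, was at 95.7, 115 and 112 CPM in control and at 88.9 and 91.0 CPM in co-cultured cells. Its groups did not overlap, with the co-cultured libraries the lower, but the log2 fold change of -0.26 (SE 0.09, 95% interval -0.47 to -0.04) had an adjusted p of 0.0636. Without control replicate 1, the lowest of the controls, BCL2L11 was called lower at a log2 fold change of -0.33 (adjusted p = 0.000243), as it was under upper-quartile normalization at -0.34 (adjusted p = 0.0301). BBC3 (chr19:47220822-47232766), the gene of PUMA, was the least expressed member, with 117, 123 and 123 reads in control and 135 and 113 in co-cultured cells. At 6.22, 6.80 and 6.30 CPM against 7.38 and 7.46 CPM its groups did not overlap, but the log2 fold change of 0.20 (SE 0.15, 95% interval -0.14 to 0.55) was not called (adjusted p = 0.337). Groups that did not overlap were common, with 29.4% of all tested genes separate with co-cultured cells higher and 30.0% with them lower, beside 7 and 1 of the 10 members.

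BNIP3 and BNIP3L rose side by side. BNIP3 (chr10:131966455-131982013) was at 220, 234 and 299 CPM in control and at 621 and 468 CPM in co-cultured cells. All co-cultured values lay above all control values, with control replicate 3 the highest control and co-cultured replicate 1 the highest of all. Its control level of 251 ± 42.2 CPM (SD, n = 3) compared with 545 ± 109 CPM (SD, n = 2) after co-culture, 2.17-fold higher, with a log2 fold change of 1.12 (SE 0.15, 95% interval 0.78 to 1.46, adjusted p = 0.000705). BNIP3L (chr8:26382898-26505636) was at 125, 160 and 178 CPM in control and at 367 and 278 CPM in co-cultured cells. It showed the same order of libraries as BNIP3, and its mean went from 154 ± 27.0 to 323 ± 62.9 CPM, 2.10-fold higher, with a log2 fold change of 1.07 (SE 0.15, 95% interval 0.72 to 1.42, adjusted p = 0.00103). BNIP3 exceeded 95.3% and BNIP3L 95.0% of all tested genes in log2 fold change. Both kept their call without any 1 library, but without co-cultured replicate 1 their log2 fold changes were 0.91 and 0.86, so that of the 3 upregulated DEGs only PMAIP1 remained.

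**Figure D2:**
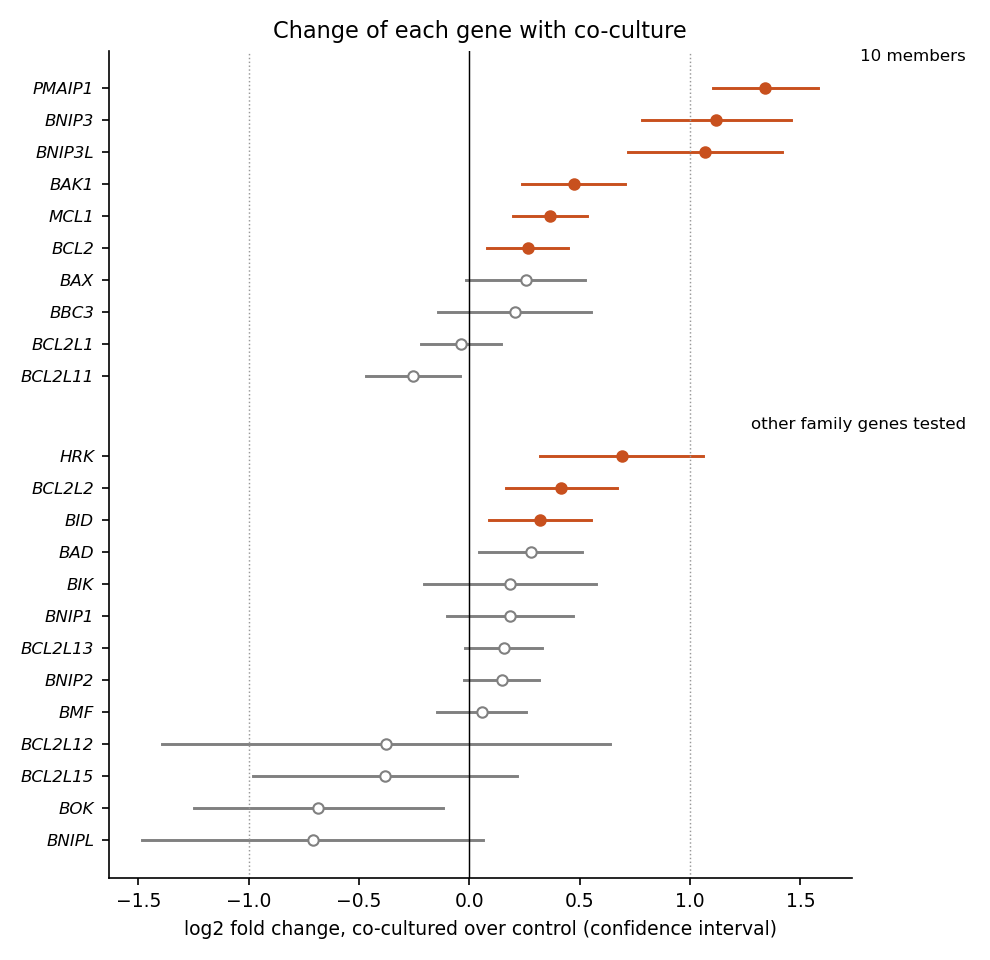
Log2 fold change of each member and of the other family genes tested, co-cultured over control, with 95% confidence intervals from the edgeR fit. Filled points have an adjusted p under 0.05, and dotted lines mark changes of 1 in either direction. PMAIP1, BNIP3 and BNIP3L lie above 1, and HRK, at 0.69, leads the other family genes.

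The balance between members was described as ratios of FPKM within each library. MCL1 over its partner PMAIP1 was 3.30, 3.82 and 3.67 in control and 1.76 and 1.89 in co-cultured cells. All co-cultured values were thus below all control values, and the mean ratio was 0.507 times that of control. BCL2L1 over BAK1, partners in the outer membrane, was 5.67, 5.25 and 6.18 in control and 4.08 and 3.91 in co-cultured cells, 0.702 times as high. The ratio of BCL2 to BAX, 1.67, 2.22 and 2.20 against 2.20 and 1.84, overlapped between the groups. The ratio of BNIP3 to BNIP3L overlapped as well, at 1.43, 1.18 and 1.36 in control and 1.37 and 1.36 in co-cultured cells, and so did that of the 3 survival genes to the 2 effectors, at 5.03, 5.55 and 5.86 against 5.09 and 4.70. These ratios are a description and were not tested. Their size depended on the exon length used. Per kilobase of the longest transcript, the mean control ratio was 7.24 in place of 5.70 for BCL2L1 to BAK1 and 1.93 in place of 1.33 for BNIP3 to BNIP3L. It was 1.68 in place of 2.03 for BCL2 to BAX, 3.48 in place of 3.60 for MCL1 to PMAIP1 and 4.56 in place of 5.48 for survival genes to effectors. BNIP3 and BNIP3L made up 31.9%, 35.9% and 39.7% of the summed FPKM of the 10 genes in control and 52.7% and 46.1% in co-cultured cells. The survival genes made up 46.2%, 43.5% and 41.6% in control and 30.3% and 34.2% after co-culture, although their own summed level was higher, at 102, 98.1 and 102 FPKM against 116 and 113 FPKM. Their share was lower because the sum over all 10 genes went from 220, 226 and 245 FPKM to 383 and 331 FPKM. The shares of the effectors (7.10% to 9.19% against 5.95% and 7.29%) and of the BH3-only genes (11.6% to 12.8% against 11.1% and 12.4%) overlapped between the groups.

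Another 16 genes of the family and of the BNIP group were followed, of which 13 passed the filter. BCL2L2, BID and HRK rose, 23.1% of the 13 beside 18.4% of all genes tested, and 10 were not called. BCL2L2, the survival protein BCL-W, went from 45.6, 36.7 and 39.9 CPM to 58.3 and 50.4 CPM (log2 fold change 0.42, SE 0.11, adjusted p = 0.0185). The gene BCL2L2-PABPN1 overlaps BCL2L2 on the same strand, and reads on any exon they share were not counted. BID, which caspase-8 cuts to link death receptors to mitochondria, had a log2 fold change of 0.32 (SE 0.10, adjusted p = 0.0393). HRK, a BH3-only gene of neurons, went from 9.46, 13.4 and 13.1 CPM to 20.8 and 17.8 CPM, with a log2 fold change of 0.69 (SE 0.16, adjusted p = 0.0115). BOK, a relative of BAX and BAK, was at 49.8, 26.6 and 28.4 CPM in control and at 19.9 and 23.6 CPM in co-cultured cells, with a log2 fold change of -0.68 (SE 0.25, adjusted p = 0.0623). Control replicate 1 alone set the width of its control group. BOK was the only 1 of the 13 lower at an unadjusted p under 0.05, none was called lower by the main edgeR fit, and DESeq2 called 2 higher and 1, BOK, lower. The number called higher was 5 without control replicate 1, 1 without control replicate 2, 2 without control replicate 3, and 0 and 1 without co-cultured replicates 1 and 2. BAD (0.28, adjusted p = 0.0677), BIK (0.18) and BMF (0.06) of the BH3-only genes had log2 fold changes that did not pass, as had BNIP1, BNIP2, BCL2L13, BCL2L12, BCL2L15 and BNIPL, between -0.71 and 0.18. BCL2A1 and BCL2L14 had no count in any library, where a count of 0 allows up to 0.157 to 0.194 CPM before TMM scaling for counting error only, and BCL2L10 had at most 4.

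Strand was checked for each member, because genes on the other strand overlap several of them. In 7 of the 10 members the opposite strand held at most 3.72% of the reads of both strands in any library. BBC3 held 4.93% to 10.7%, from 7 to 14 reads. At BNIP3 the opposite strand held 4.76%, 6.15% and 4.39% in control and 0.898% and 1.16% in co-cultured cells. The share was lower in both co-cultured libraries, and so were the opposite-strand reads themselves, 207, 277 and 268 against 103 and 83, with a log2 fold change of -1.10 (SE 0.17, adjusted p = 0.00113 in the edgeR fit of opposite-strand counts). Of 12653 genes tested on the opposite strand, 7.86% were called higher and 6.39% lower. The antisense genes AL162274.2 and AL162274.1, opposite introns of BNIP3, fell as well on their own strand, from 30, 39 and 35 to 18 and 6 reads (log2 fold change -1.37, SE 0.40, adjusted p = 0.0264) and from 7, 20 and 17 reads to 1 and 3 reads, at the floor of detection (adjusted p = 0.0255).

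**Figure D3:**
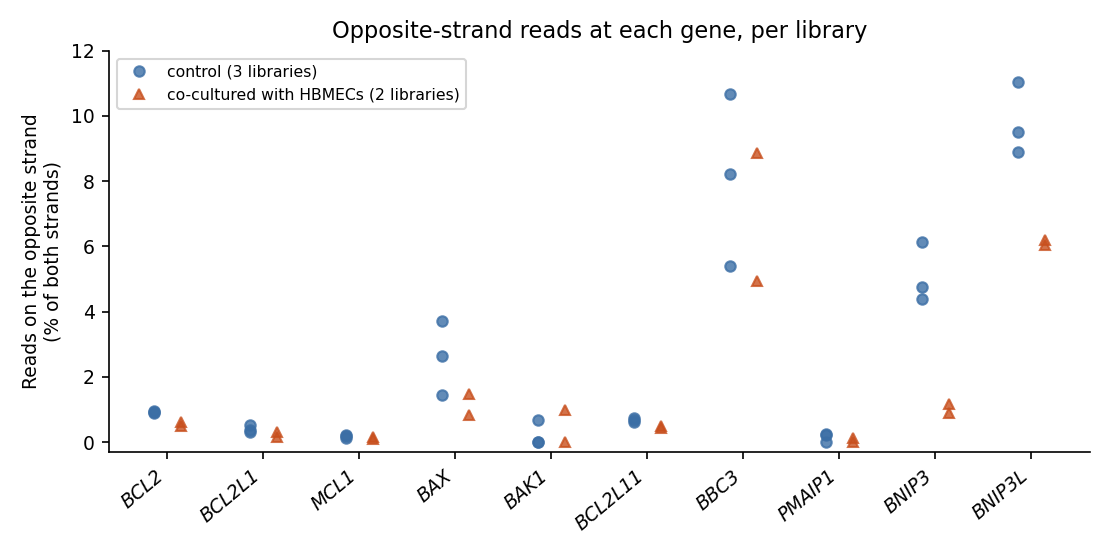
Reads on the strand opposite each member, as a percentage of the reads of both strands, in each library. Circles are control and triangles co-cultured libraries. The share is lower in co-cultured cells at BNIP3, where the opposite-strand reads themselves fell, and at BNIP3L, where their log2 fold change was smaller than that of the gene.

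At BNIP3L the opposite strand held 11.1%, 8.90% and 9.52% in control and 6.19% and 6.05% in co-cultured cells. Unlike at BNIP3, the opposite-strand reads themselves, 291, 282 and 365 against 443 and 271, were called higher (log2 fold change 0.51, SE 0.15, adjusted p = 0.0444 in the edgeR fit of opposite-strand counts). In raw reads, co-cultured replicate 2, the smallest library, lay below every control library. The share was lower because the reads of BNIP3L rose more. PNMA2, a gene on that strand, shares 330 bases of exon with BNIP3L, 7.7% of its exons. Its own counts were 2597, 2777 and 3313 in the control libraries, against 3857 and 2530 after co-culture (log2 fold change 0.30, SE 0.12, adjusted p = 0.0808). BCL2L1 is overlapped by the antisense gene ABALON over 1424 bases, 43.0% of its exons, and counting without strand gave BCL2L1 only 1133 to 1598 reads against 2047 to 2868 with strand. Reads in such a stretch are ambiguous without strand, and ABALON itself held 7 to 11 reads. MIR4435-2HG overlaps 727 bases of BCL2L11, 10.9% of its exons, and held 18 to 27 reads.

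The rises of the BNIP3 genes and of PMAIP1 were set beside lists of genes from pathways known to raise these genes in general. Whether these pathways caused the rises in these cells was not tested. The counts of each list are to be read beside the 18.4% of all tested genes that were higher and the 15.0% that were lower. The lists were chosen with earlier results of these data known, so their counts and medians are a description and not a test. Of 25 tested HIF targets outside the family, 21 rose and 4 were not called, with a median log2 fold change of 1.50. DDIT4, an inhibitor of mTORC1, had a log2 fold change of 2.30 (SE 0.16, adjusted p = 4.12e-05), VEGFA, the angiogenic growth factor, of 1.59 (SE 0.11, adjusted p = 4.05e-05) and EGLN1, the oxygen sensor that marks HIF for decay, of 1.50 (SE 0.11, adjusted p = 4.14e-05). BNIP3 and BNIP3L, at 1.12 and 1.07, lay below the median of these targets. Leaving out 1 library, this median ran from 1.29, without co-cultured replicate 1, to 1.67, without co-cultured replicate 2.

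Of 17 tested genes of the integrated stress and unfolded protein responses, through which ATF4 is known to raise PMAIP1, 13 rose and 4 were not called, with a median log2 fold change of 0.90. PPP1R15A, which restarts translation after stress, had a log2 fold change of 1.50 (SE 0.08, adjusted p = 2.08e-05), TRIB3, a pseudokinase induced by ATF4, of 1.47 (SE 0.09, adjusted p = 2.68e-05) and XBP1, a transcription factor of the unfolded protein response, of 1.37 (SE 0.08, adjusted p = 2.23e-05). PMAIP1, at 1.34, lay above the median of this list. Leaving out 1 library, the median ran from 0.86, without control replicate 3, to 0.97, without control replicate 1.

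**Figure D4:**
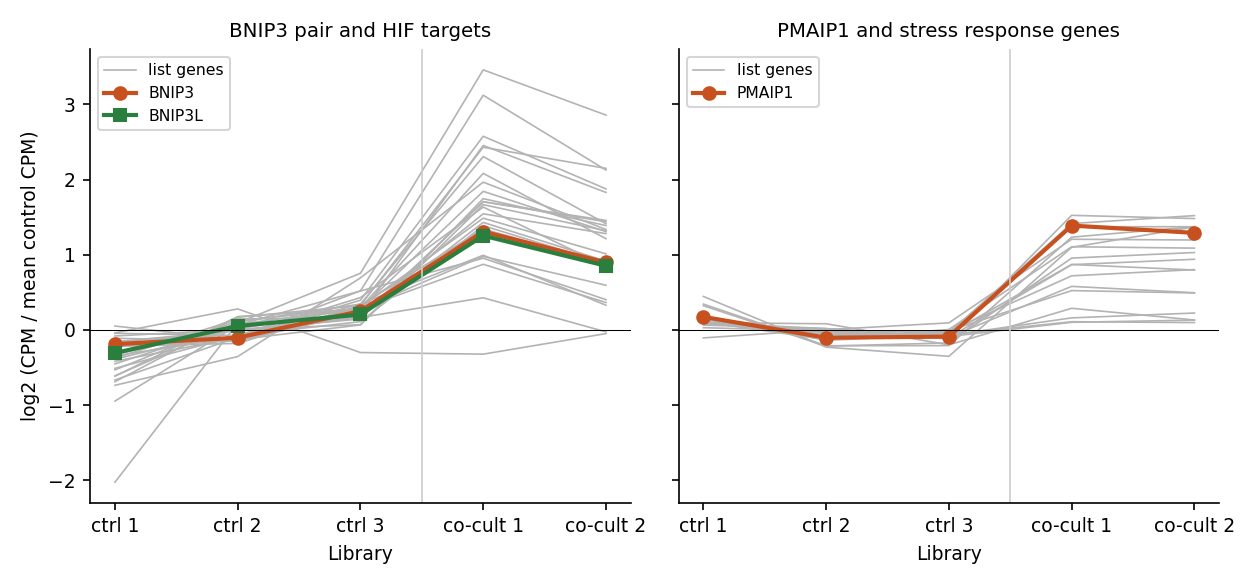
Level of each tested gene in each library relative to its mean in control (log2 of the CPM ratio), with BNIP3 and BNIP3L among HIF targets on the left and PMAIP1 among stress response genes on the right. Lines join the 5 libraries of a gene and imply no order in time. In control replicate 1, BNIP3 and BNIP3L were at their lowest and PMAIP1 at its highest control level.

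PMAIP1, BBC3 and BAX are also known p53 targets. Of 22 tested p53 targets outside the family, 8 rose, 5 fell and 9 were not called, with a median log2 fold change of 0.05. TNFRSF10B, a death receptor, had a log2 fold change of 2.47 (SE 0.27, adjusted p = 0.000249), GDF15, a stress cytokine, of 2.22 (SE 0.15, adjusted p = 3.53e-05) and CDKN1A, a cell cycle inhibitor, of 1.71 (SE 0.14, adjusted p = 7.72e-05). MDM2, the feedback inhibitor of p53 and named after its value was seen, was at 0.18 and not called (adjusted p = 0.115). Whether p53 acted on any of these genes was not tested. FOXO factors are known to raise BCL2L11, and of 14 tested FOXO genes and targets 6 rose, 1 fell and 7 were not called, with a median of 0.12. CITED2 (1.99, adjusted p = 0.000134), BCL6 (1.15, adjusted p = 0.00127) and FOXO1 itself (0.61, adjusted p = 0.00338) rose on the log2 scale. BCL2L11 was at -0.26 and not called (adjusted p = 0.0636). The activity of FOXO factors was not tested. Without co-cultured replicate 1 or 2, 6 and 5 of the p53 targets rose and 2 and 1 fell, and 3 of the FOXO genes rose in either case. Without control replicate 1, 3 FOXO genes fell, and without control replicate 2, 4 rose.

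Genes of the caspases, of autophagy and of BCL2 protein turnover moved in both directions. Of 24 tested caspases, apoptosome genes and inhibitors of apoptosis, 10 rose, 3 fell and 11 were not called, with a median log2 fold change of 0.16. BIRC3, which restrains death receptor signaling, had a log2 fold change of 1.51 (SE 0.12, adjusted p = 7.39e-05) and CASP8, the initiator caspase of death receptors, of 0.81 (SE 0.14, adjusted p = 0.00229). Of 32 tested genes of mitophagy and autophagy, where BNIP3 and BNIP3L act, 9 rose, 7 fell and 16 were not called, with a median of 0.08, so that 28.1% were higher and 21.9% lower beside 18.4% and 15.0% of all genes tested. WIPI1, which binds the lipid of forming autophagosomes, rose by 1.71 (SE 0.17, adjusted p = 0.000153), while the kinase ULK2 and the lipid kinase subunit ATG14 had log2 fold changes of -0.84 (SE 0.08, adjusted p = 0.000103) and -0.79 (SE 0.10, adjusted p = 0.000521). Of 13 tested genes that regulate the turnover or binding of the BCL2 proteins, 3 rose, 1 fell and 9 were not called, with a median of 0.19, a share of 23.1% higher and 7.69% lower that is near that of all genes for the rises and below it for the fall. BAG1, a chaperone cofactor that binds BCL2, had a log2 fold change of -0.75 (SE 0.15, adjusted p = 0.00534), and PPP2CA, the catalytic subunit of protein phosphatase 2A, and YWHAZ, a 14-3-3 protein, were at 0.50 (SE 0.10, adjusted p = 0.00461) and 0.52 (SE 0.12, adjusted p = 0.0086). These counts depended on single libraries. Without co-cultured replicates 1 and 2, 5 and 6 caspase and apoptosome genes rose and 1 and 0 fell, and 2 mitophagy and autophagy genes rose in either case while 3 and 4 fell. Without control replicates 1, 2 and 3, 15, 5 and 4 mitophagy and autophagy genes rose, and 8, 2 and 2 turnover genes, against 1 and 0 turnover genes without co-cultured replicates 1 and 2.

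**Figure D5:**
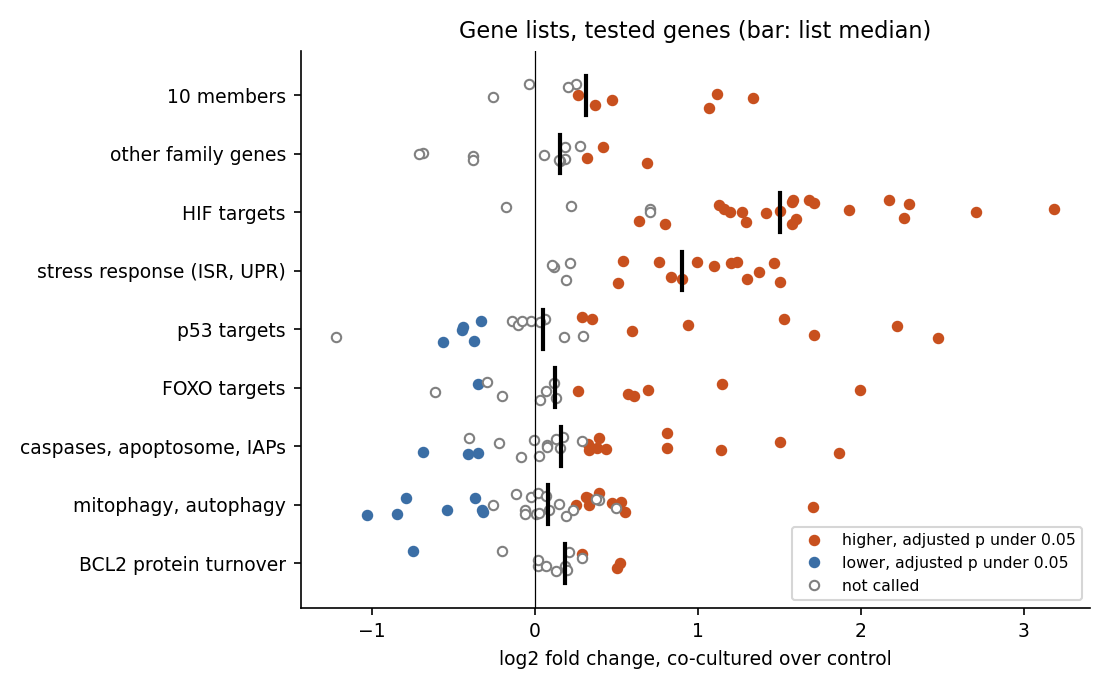
Log2 fold change, co-cultured over control, of every tested gene of the 10 members, the other family genes and 7 gene lists. Points are colored by their call at an adjusted p under 0.05, and bars are list medians. HIF targets and stress response genes have medians of 1.50 and 0.90, and the medians of the remaining lists lie between 0.05 and 0.32.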

How the data were processed

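The authors aligned and counted the reads of rRNA-depleted, directional libraries with STAR 2.6.1b on GRCh38 (submitters' processing notes) and deposited raw counts per gene and strand. Gene IDs matched GENCODE release 29. The authors' table of the comparison, in the layout of DESeq2 output with means, fold changes and p-values, was used only to pair identifiers with symbols. Counts of the expected strand, 92.3% to 93.1% of the reads on either strand, were kept. Genes were filtered with filterByExpr, normalized by TMM and compared with edgeR 4.0.16 (R 4.3.3) by its quasi-likelihood test, 3 control against 2 co-cultured libraries, two-sided, with Benjamini-Hochberg adjustment over 20360 genes. The SE is the absolute log2 fold change over the square root of F. FPKM is the TMM-scaled CPM per kilobase of merged exons. The common dispersion was 0.0103. No replicate pair agreed within sampling noise (chi-square over degrees of freedom 4.41 to 17.7). Steps were tested on simulated data.

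The members and the 17 gene lists, written from general knowledge, were chosen with earlier results of these data known. Besides the members, the other family genes and MDM2, the text names the 3 genes with the smallest p among the called genes of each pathway list. The result of 1 of these genes is not reported here. Of 211 symbols, 210 matched a single gene identifier; SOD2 did not. SESN2 was in the p53 and the stress response lists. Alternatives were DESeq2 1.42.0, other normalizations and filters, protein-coding genes only, unstranded counts, a replicate block and each library left out in turn. Intervals and floors cover counting error and the spread between these libraries only. Plots used matplotlib 3.10.9.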

Additional observations from a re-analysis of the deposited data

Results flagged for a closer look

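At BNIP3L, reads on the strand opposite the gene, which no comparison of the main strand uses, numbered 291, 282 and 365 in control and 443 and 271 in co-cultured cells. Their log2 fold change was 0.51 (SE 0.15, adjusted p = 0.0444 in the edgeR fit of opposite-strand counts). Only co-cultured replicate 1 held more of these reads than every control library. The 271 reads of co-cultured replicate 2, the smallest library, were fewer than in any control. The fit was not repeated with single libraries left out. BNIP3L on its own strand had a log2 fold change of 1.07 and PNMA2, the overlapping gene on that strand, of 0.30 (adjusted p = 0.0808). The part of PNMA2 in these reads was not tested.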

How the results depend on the processing

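PMAIP1, BNIP3 and BNIP3L were called higher under all 13 alternatives fitted, with log2 fold changes of 1.26 to 1.44, 0.91 to 1.31 and 0.86 to 1.26. Leaving out each library in turn, 3 to 7 members were called higher, 0 to 1 lower, and 1 to 3 were upregulated DEGs. The log2 fold changes then ran from 0.19 to 0.34 for BCL2, 0.35 to 0.40 for MCL1, 0.45 to 0.51 for BAK1, 0.21 to 0.37 for BAX, -0.33 to -0.20 for BCL2L11 and -0.083 to 0.0075 for BCL2L1. Without co-cultured replicate 1 or 2, where the lone library was assumed to vary like the controls, 1749 and 1910 genes were higher and 985 and 1113 lower, against 3750 and 3059. BCL2 lost its call under upper-quartile normalization (0.18) and over protein-coding genes only (0.19), and the call of 1 member, BCL2L11, as lower was made under both (-0.34 and -0.33). With unstranded counts BCL2L1 was at 0.0214.

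Replicate numbers were shared between groups, and same-numbered deviations from the group mean correlated at -0.11 and -0.07. The deviations of the co-cultured libraries mirror each other by construction, so these values cannot decide whether same-numbered samples were paired. With a replicate block, 3 members were called higher, BCL2 (0.27), MCL1 (0.34) and BAK1 (0.45) were not, BCL2L1 was at 0.0044, and 2771 genes were higher and 2053 lower. The causes were not tested.

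Per kilobase of the longest transcript, control levels were 34.9 FPKM for BCL2, 53.3 for BCL2L1, 40.6 for MCL1, 21.1 for BAX, 20.5 for BCL2L11, 3.50 for BBC3, 11.7 for PMAIP1, 81.9 for BNIP3 and 42.6 for BNIP3L, since fewer bases were counted as exon. BBC3 rested on 113 to 135 reads a library, and its interval covers the log2 fold changes of BCL2 and BAK1.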
